A study of Mus musculus with 12 samples.

Results

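Tumours of cells labelled as knockout for the nuclease TREX1, given isotype antibody, were set head to head against tumours of control cells given checkpoint antibodies, so that a change made in the cancer cell was compared with a change made by treating the host. Both groups hold mammary tumours grown in mice from 4T1, a mouse mammary carcinoma line. In the KO-IgG group TREX1 had been targeted in the 4T1 cells with CRISPR-Cas9, per the labels, and the mice received isotype-matched IgG. In the CTRL-ICB group the cells were the control line (CTRL) and the mice received checkpoint blockade (ICB), which was 200 ug anti-PD1 with 100 ug anti-CTLA4, given 3 times weekly for 1 week. CTRL-IgG tumours were of control cells in mice given isotype-matched IgG, with neither the knockout nor the checkpoint antibodies. Their values stand beside those of both groups, and untreated below means this isotype control. The fourth group, KO-ICB, had both and entered through the estimate of the spread and through the TPM cut-offs that chose genes. Each group has 3 libraries of polyadenylated RNA, so the comparison rests on 6 of the 12 libraries, chosen by their titles. The sources used here do not say whether the edited cells were 1 clone, and give neither the strain nor the age of the mice. Host cells inside a KO-IgG tumour keep their own Trex1.

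TREX1 degrades DNA in the cytosol. Where it is missing, cytosolic DNA can engage the sensor cGAS, which signals through STING to IRF3 and NF-kB, and type I interferon then induces a set of antiviral genes through factors that include STAT2 and IRF9. Antibodies to PD1 and CTLA4 block inhibitory receptors on T cells, and interferon gamma from those cells induces another, overlapping set of genes, among them those of antigen presentation. Both interventions are known to act on tumour immunity, the first from the cancer cell and the second from the lymphocyte.

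Values are TPM, a share of each library scaled to a common total, so depth is unknown and no counting error can be given. KO-IgG replicates 2 and 3 were nearly the same library: over 437 genes above 300 TPM on average the robust SD of their log2 ratio was 0.0614, against 0.574 and 0.597 between KO-IgG replicate 1 and each of them, and 0.310 to 0.369 among the CTRL-ICB libraries. KO-ICB replicates 1 and 2 were as close, at 0.0382. Each pair was therefore averaged and counted as 1 sample, which leaves 2 KO-IgG and 3 CTRL-ICB samples in a fit over 10 samples, and results over all 12 libraries stand beside it. By the same measure KO-IgG replicate 1 lay 0.507 to 0.620 from the CTRL-ICB libraries, about as far as from KO-IgG replicates 2 and 3. Replicates 2 and 3 lay 0.385 to 0.525 from the CTRL-ICB libraries, so they were nearer to each of these than to replicate 1. From CTRL-IgG replicates 1, 2 and 3, KO-IgG replicate 1 lay 0.659, 0.449 and 0.570. It was thus nearer to CTRL-IgG replicate 2 than to its own group or to any CTRL-ICB library. KO-IgG replicates 2 and 3 lay 0.376 to 0.682 from the CTRL-IgG libraries, nearest to CTRL-IgG replicate 3. KO-IgG replicate 1 also went against the tissue label in part. Epcam, the adhesion molecule of epithelial cells, stood at 0.661 TPM in replicate 1, against 1101 and 1087 TPM in replicates 2 and 3, 602 to 701 TPM in CTRL-ICB and 87.1 to 1113 TPM in CTRL-IgG. The simple-epithelium keratin Krt8 was nonetheless present in it at 692 TPM, against 938 and 915 TPM in replicates 2 and 3 and 728 to 1028 TPM in CTRL-ICB. Values are therefore given for replicate 1 and for the pair separately wherever they part.

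Trex1 transcript was not lower in the libraries labelled KO. In KO-IgG replicates 1, 2 and 3, Trex1 (minus strand of GRCm38 chromosome 9, 109057933 to 109059734) had 56.0, 65.5 and 66.3 TPM, against 45.7, 36.2 and 44.1 TPM in CTRL-ICB and 32.8, 44.0 and 46.2 TPM in CTRL-IgG. The mean was 60.9 ± 7.02 TPM in KO-IgG (SD, n = 2) and 42.0 ± 5.08 TPM in CTRL-ICB (SD, n = 3), with an exact two-sided permutation p of 0.1, the smallest that these group sizes allow. In limma, a linear model fitted across all genes, the log2 fold change was 0.53 ± 0.22 (SE) with an adjusted p of 0.611. A small Cas9 lesion need not remove a transcript. The transcript therefore does not check the label, and KO-IgG here means the libraries labelled so.

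Of 13886 genes tested, none passed an adjusted p of 0.05 between KO-IgG and CTRL-ICB over 10 samples (0% in each direction by limma with Benjamini-Hochberg adjustment, smallest adjusted p 0.105), and 1089 genes (7.84%) had an unadjusted p under 0.05, of which 657 were higher and 432 lower. Over 12 libraries, with KO-IgG replicates 2 and 3 counted separately, 24 genes passed, of which 12 (0.0864%) were higher and 12 (0.0864%) lower in KO-IgG. None of these 24 passed over 10 samples, and Msln alone passed when only the KO-IgG pair was averaged, so their values are given below as higher or lower and not as changes that held once the pair was counted once. The count turned on single libraries: it was 636 over 11 libraries without KO-IgG replicate 1 and 6 over 11 libraries without CTRL-ICB replicate 3, and in the 10-sample fit 93 genes passed without the KO-IgG pair and 2 without CTRL-ICB replicate 3. All 3 KO-IgG libraries lay above all 3 CTRL-ICB libraries for 1176 genes (8.47%) and below them for 1125 genes (8.10%). These shares of all tested genes are the background for the counts of the gene lists below. The median log2 fold change over all genes was -0.01. The 95% interval of a log2 fold change had a median width of 1.49, and for 6428 genes (46.3%) it lay within 1 log2 unit of 0.

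**Figure D1:**
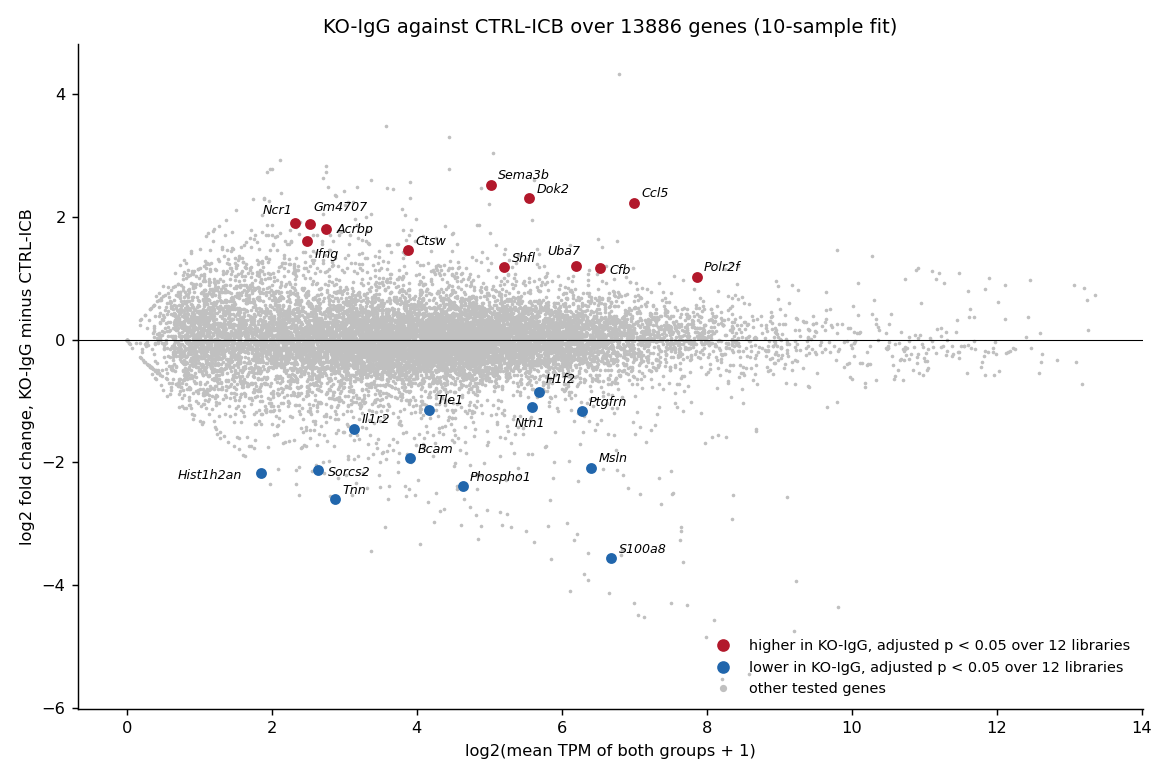
Log2 fold change of KO-IgG over CTRL-ICB (vertical axis) against the log2 mean TPM of both groups (horizontal axis) for 13886 genes, each a point, from the 10-sample fit. Red and blue points are the 12 genes higher and the 12 genes lower in KO-IgG that passed an adjusted p of 0.05 over 12 libraries, none of which passed over 10 samples.

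Among these 24 genes, 3 patterns were seen for most when the untreated tumours were set beside them. No cut-off set the patterns. The log2 fold change of CTRL-ICB over CTRL-IgG was -0.38 ± 0.26 for Il1r2, which was placed, and -0.33 ± 0.18 for Shfl, which was not. Sema3b, Shfl, Ncr1, Bcam, Tnn and Sorcs2 were not placed in a pattern. Ccl5, Ctsw, Ifng, Uba7 and Cfb were high in KO-IgG while CTRL-ICB stayed near the untreated level. Msln, S100a8, Il1r2, Tle1, Ptgfrn and Hist1h2an were low in KO-IgG in the same way. Dok2, Gm4707, Acrbp, Polr2f, Phospho1, Ntn1 and H1f2 differed with CTRL-ICB tumours themselves away from the untreated level. The contrasts with CTRL-IgG are given as values, with no test.

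**Figure D2:**
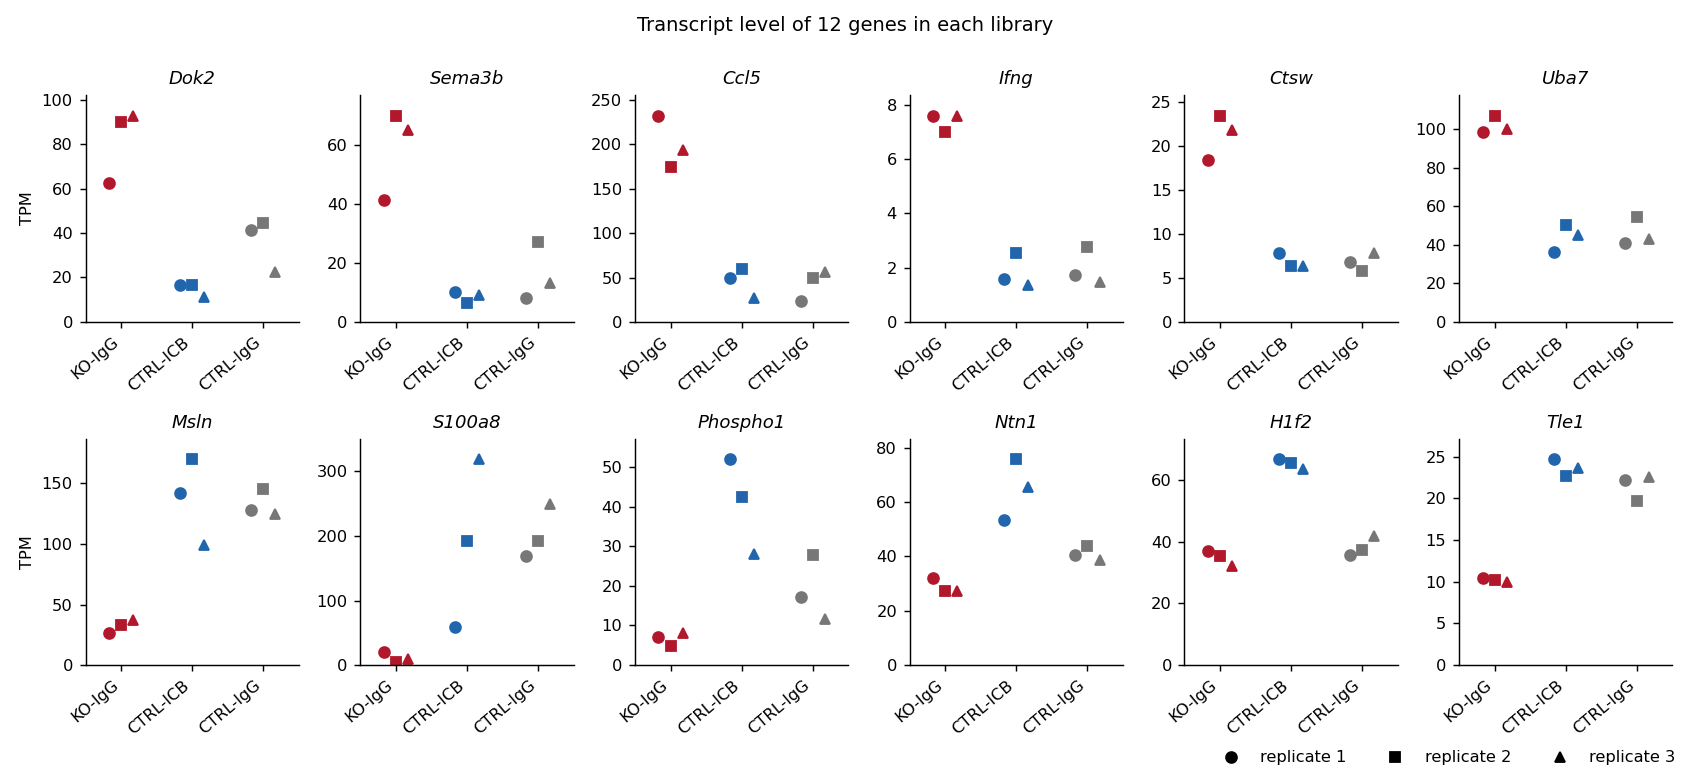
TPM (vertical axis, from 0) of 12 genes in each library of KO-IgG, CTRL-ICB and CTRL-IgG, with the replicate number given by the marker shape. In every panel the 3 KO-IgG libraries stand apart from the 3 CTRL-ICB libraries, and the CTRL-ICB libraries also stand well apart from CTRL-IgG for Dok2, Ntn1 and H1f2, and narrowly for Phospho1 and Tle1.

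Ccl5, a chemokine that draws T cells and NK cells (chromosome 11, 83525778 to 83530518, minus strand), was at 232, 174 and 194 TPM in KO-IgG, against 49.9, 60.0 and 26.6 TPM in CTRL-ICB and 24.1, 49.0 and 56.7 TPM in CTRL-IgG. The groups did not overlap, and the log2 fold change over CTRL-ICB was 2.23 ± 0.40 (SE, limma adjusted p 0.315 over 10 samples and 0.0276 over 12 libraries). Ifng, which encodes interferon gamma, was at 7.58, 6.99 and 7.56 TPM in KO-IgG, against 1.58, 2.52 and 1.37 TPM in CTRL-ICB and 1.73, 2.77 and 1.47 TPM in CTRL-IgG. Its 3 KO-IgG values lay within 1 TPM of each other, and the log2 fold change was 1.60 ± 0.31 (limma adjusted p 0.315 over 10 samples and 0.0293 over 12 libraries). Ctsw, the cathepsin W gene of killer lymphocytes, was at 18.4, 23.4 and 21.8 TPM in KO-IgG, against 7.86, 6.35 and 6.36 TPM in CTRL-ICB, with CTRL-IgG at 5.73 to 7.79 TPM. Ncr1, the activating NK receptor NKp46, was at 4.39, 10.1 and 8.94 TPM in KO-IgG, against 1.00, 0.821 and 1.31 TPM in CTRL-ICB. Against CTRL-IgG, the log2 fold change of Ccl5 was 2.32 ± 0.40 for KO-IgG and 0.08 ± 0.36 for CTRL-ICB. Those of Ifng were 1.52 ± 0.31 for KO-IgG and -0.08 ± 0.28 for CTRL-ICB, and those of Ncr1 were 1.40 ± 0.40 for KO-IgG and -0.49 ± 0.35 for CTRL-ICB. Both contrasts share the CTRL-IgG samples. In a whole tumour more cells of a type and more RNA per cell cannot be told apart.

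Uba7, the enzyme that activates ISG15 for its conjugation to other proteins, was at 98.6, 107 and 100 TPM in KO-IgG, against 36.1, 50.1 and 44.9 TPM in CTRL-ICB and 41.2 to 54.7 TPM in CTRL-IgG. Its log2 difference from the CTRL-ICB mean was 1.17 in replicate 1 and 1.24 in the pair, with a limma adjusted p of 0.315 over 10 samples and 0.0191 over 12 libraries. Shfl, an interferon-induced inhibitor of ribosomal frameshifting in viral RNA, was at 55.5, 46.5 and 43.3 TPM in KO-IgG, against 20.8, 20.7 and 23.3 TPM in CTRL-ICB and 27.1 to 27.6 TPM in CTRL-IgG. Cfb, complement factor B of the alternative pathway, was at 136, 123 and 110 TPM in KO-IgG, against 65.0, 59.4 and 44.7 TPM in CTRL-ICB. Polr2f, a subunit shared by the nuclear RNA polymerases, was at 304, 296 and 333 TPM in KO-IgG, against 128, 174 and 157 TPM in CTRL-ICB and 198 to 217 TPM in CTRL-IgG. Sema3b, a secreted semaphorin (chromosome 9, 107597674 to 107609229, minus strand), was at 41.4, 69.7 and 64.8 TPM in KO-IgG, against 9.97, 6.55 and 9.02 TPM in CTRL-ICB and 7.93, 27.0 and 13 TPM in CTRL-IgG. Sema3b had the largest log2 fold change of the 12 genes higher in KO-IgG, 2.52 ± 0.43. Acrbp, named for binding acrosin of the sperm, was at 5.39, 15.2 and 12.4 TPM in KO-IgG, against 1.52, 2.31 and 1.63 TPM in CTRL-ICB and 3.12 to 4.60 TPM in CTRL-IgG. The predicted gene Gm4707 was at 5.52, 10.2 and 11.1 TPM in KO-IgG, against 1.27, 1.11 and 1.81 TPM in CTRL-ICB and 2.91 to 5.22 TPM in CTRL-IgG. The log2 fold change of CTRL-ICB over CTRL-IgG was -0.81 ± 0.33 for Acrbp, -1.03 ± 0.33 for Gm4707 and -0.44 ± 0.16 for Polr2f.

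Dok2, an adaptor protein of blood cells that restrains signalling from tyrosine kinases, was the gene with the smallest p among those higher in KO-IgG. Dok2 (chromosome 14, 70766036 to 70778495, plus strand) was at 62.7, 90.0 and 92.7 TPM in KO-IgG, against 16.8, 16.5 and 11 TPM in CTRL-ICB, with CTRL-IgG in between at 41.2, 44.7 and 22.5 TPM. The log2 fold change was 2.30 ± 0.32 between KO-IgG and CTRL-ICB (limma adjusted p 0.241 over 10 samples and 0.00850 over 12 libraries). Set against CTRL-IgG it was 1.10 ± 0.32 for KO-IgG and -1.20 ± 0.29 for CTRL-ICB, so the interventions lay on opposite sides of the untreated level.

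Msln had the smallest p of all genes and was the gene called most often under other settings. It encodes mesothelin, a surface glycoprotein of mesothelium and of many carcinomas (chromosome 17, 25748613 to 25754378, minus strand). Msln was at 26.6, 33.0 and 37.4 TPM in KO-IgG, against 142, 170 and 99.2 TPM in CTRL-ICB and 128, 145 and 125 TPM in CTRL-IgG. The log2 fold change was -2.09 ± 0.25 (limma adjusted p 0.105 over 10 samples and 0.00546 over 12 libraries), and CTRL-ICB differed from CTRL-IgG by 0.02 ± 0.22. KO-IgG replicate 1, with almost no Epcam, had the lowest Msln value, and the pair, with more Epcam than any CTRL-ICB library, also lay below every CTRL-ICB library. S100a8, a calprotectin gene of neutrophils, was at 20.7, 4.65 and 9.13 TPM in KO-IgG, against 58.6, 192 and 319 TPM in CTRL-ICB and 169 to 249 TPM in CTRL-IgG, at a log2 fold change of -3.56 ± 0.64. The interleukin 1 decoy receptor gene Il1r2 was at 3.87, 4.09 and 2.85 TPM in KO-IgG, against 9.19, 12.6 and 13.9 TPM in CTRL-ICB.

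Tle1, a transcriptional corepressor of the Groucho family, was at 10.4, 10.2 and 9.91 TPM in KO-IgG, against 24.7, 22.7 and 23.6 TPM in CTRL-ICB and 19.7 to 22.6 TPM in CTRL-IgG. Its values were tight within each group, at 10.2 ± 0.232 TPM in KO-IgG (SD, n = 2) and 23.7 ± 0.986 TPM in CTRL-ICB (SD, n = 3), and the log2 fold change was -1.14 ± 0.20. Ptgfrn, a membrane protein of the immunoglobulin superfamily that partners tetraspanins, was at 54.1, 39.9 and 38.3 TPM in KO-IgG, against 85.9, 112 and 119 TPM in CTRL-ICB. Bcam, a receptor for laminin, was at 5.65, 4.87 and 3.97 TPM in KO-IgG, against 27.2, 13.3 and 28.5 TPM in CTRL-ICB. Tnn, a matrix glycoprotein of the tenascin family, and Sorcs2, a receptor with a VPS10 domain, were also lower, with log2 fold changes of -2.60 ± 0.54 and -2.13 ± 0.42. Hist1h2an, a histone gene with near-identical copies, was under 1 TPM in every KO-IgG library, against 4.46 to 5.34 TPM in CTRL-ICB, and reads could have been split among the copies.

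Phospho1, Ntn1 and H1f2 were lower than in CTRL-ICB with part or all of the distance on the side of the antibodies. Phospho1, a phosphatase known from bone mineralization (chromosome 11, 95824499 to 95832140, plus strand), was at 7.02, 4.93 and 8.01 TPM in KO-IgG, against 52.0, 42.5 and 28.0 TPM in CTRL-ICB and 17.1, 27.7 and 11.6 TPM in CTRL-IgG. Its log2 fold change was -2.39 ± 0.37, and against CTRL-IgG it was -1.27 ± 0.37 for KO-IgG and 1.12 ± 0.33 for CTRL-ICB. Ntn1, the secreted guidance protein netrin, was at 31.9, 27.2 and 27.3 TPM in KO-IgG, against 53.3, 75.8 and 65.7 TPM in CTRL-ICB and 38.5 to 43.9 TPM in CTRL-IgG. H1f2, a linker histone, was at 37.0, 35.4 and 32.2 TPM in KO-IgG, against 66.7, 65.4 and 63.5 TPM in CTRL-ICB and 35.8, 37.3 and 41.7 TPM in CTRL-IgG. For H1f2 the log2 fold change over CTRL-IgG was -0.11 ± 0.17 for KO-IgG and 0.76 ± 0.16 for CTRL-ICB, so that the difference of -0.86 ± 0.17 lay almost wholly with the antibody-treated tumours. H1f2 transcripts are largely not polyadenylated in dividing cells, and the libraries were made from polyadenylated RNA.

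The type I interferon program separated the KO-IgG pair, not KO-IgG replicate 1, from CTRL-ICB. Of 35 interferon-stimulated genes, all tested, 31 lay above every CTRL-ICB library in both KO-IgG replicates 2 and 3, whereas in replicate 1 only 7 did and 12 lay below every CTRL-ICB library. Across all tested genes the pair was above every CTRL-ICB library for 2373 genes and replicate 1 for 5154, and replicate 1 was below every one for 3152. All 3 KO-IgG libraries were above CTRL-ICB for 6 of the 35 (Ifit2, Ifit3, Mx1, Rsad2, Trim30a and Uba7), and Uba7 alone passed over 12 libraries. The median log2 difference from CTRL-ICB was 0.61 in the 10-sample fit, -0.09 in replicate 1 and 1.23 in the pair, and the list's median log2 fold change of CTRL-ICB over CTRL-IgG was -0.01.

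Isg15, the ubiquitin-like protein of the interferon response, was chosen after its values were seen, and stood at 140, 709 and 730 TPM in KO-IgG, against 248, 158 and 186 TPM in CTRL-ICB and 132, 143 and 213 TPM in CTRL-IgG. Replicate 1 thus lay below every CTRL-ICB library and the pair far above. Irf7, the factor that amplifies interferon transcription, had the same shape at 81.2, 379 and 386 TPM in KO-IgG, against 94.4 to 113 TPM in CTRL-ICB. Usp18, which removes ISG15 from proteins, was at 16.8, 140 and 137 TPM in KO-IgG, against 50.3 to 58.2 TPM in CTRL-ICB. Mx1, a dynamin-like antiviral GTPase, was higher in all 3 KO-IgG libraries at 10.3, 33.3 and 26.5 TPM, against 5.37, 5.77 and 6.89 TPM in CTRL-ICB, with a log2 fold change of 1.42 ± 0.43 (limma adjusted p 0.490). Ifit2, which binds viral RNA, showed little distance between KO-IgG libraries at 25.2, 30.1 and 27.9 TPM, against 13.4, 15.9 and 17.4 TPM in CTRL-ICB. Rsad2, the antiviral enzyme viperin, ran the other way round within the group, at 13.7, 8.27 and 9.49 TPM in KO-IgG, against 3.41, 6.71 and 7.20 TPM in CTRL-ICB.

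**Figure D3:**
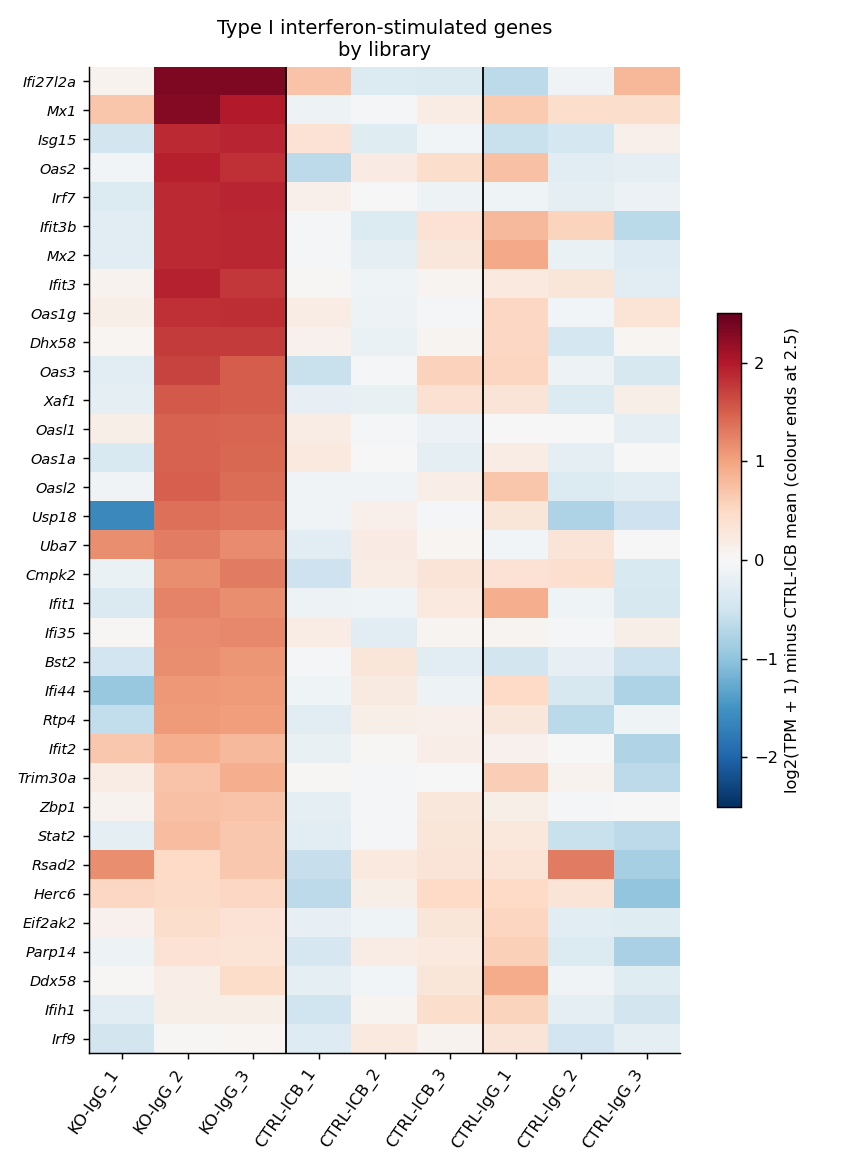
Log2(TPM + 1) of 34 of the 35 type I interferon-stimulated genes (rows) in 9 libraries (columns), as the difference from the CTRL-ICB mean of each gene, with the colour scale ended at 2.5. KO-IgG replicates 2 and 3 are red for nearly all rows, while KO-IgG replicate 1 is near the CTRL-ICB level for most rows and below it for Usp18, Ifi44 and Rtp4.

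The promoters of these genes are shown because they hold the short element that the interferon-activated factors read. The core searched was GAAANNGAA on either strand, within 250 bases before to 50 bases after the annotated start, in RefSeq promoters of GRCm38.p6. It was found in 15 of the 25 interferon-stimulated genes with a promoter entry (60.0%) and in 14 of the 16 interferon gamma-induced genes with one (87.5%), against 2812 of 32851 promoters in the table (8.56%) and 937 of 10373 tested genes with an entry (9.03%). Capitals mark the matches, which appear as the reverse complement where the element lies on the other strand, and overlapping matches run together. The stretches shown are chr4:156200846-156200926 on the minus strand (Isg15), chr19:34640750-34640843 on the plus strand (Ifit1), chr19:34583344-34583465 on the plus strand (Ifit3), chr5:120777690-120777764 on the minus strand (Oas3) and chr12:26456533-26456601 on the minus strand (Rsad2), each 5′ to 3′ along the gene.
Isg15: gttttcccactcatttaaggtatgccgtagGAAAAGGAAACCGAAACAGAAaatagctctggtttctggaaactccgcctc
Ifit1: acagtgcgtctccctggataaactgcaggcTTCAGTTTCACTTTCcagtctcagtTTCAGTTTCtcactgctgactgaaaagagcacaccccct
Ifit3: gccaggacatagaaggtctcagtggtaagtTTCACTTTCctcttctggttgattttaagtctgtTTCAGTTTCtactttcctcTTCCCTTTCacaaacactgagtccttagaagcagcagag
Oas3: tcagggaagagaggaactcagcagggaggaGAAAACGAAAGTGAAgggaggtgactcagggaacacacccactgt
Rsad2: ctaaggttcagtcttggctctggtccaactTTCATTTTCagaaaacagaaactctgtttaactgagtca
Isg15, Ifit1 and Ifit3 hold 3 matches each, Oas3 holds 2 and Rsad2 holds 1. Matches were present among genes of each pattern. Of the 6 interferon-stimulated genes above CTRL-ICB in every KO-IgG library, 3 of the 5 with an entry held a match. Of the 11 that were above it in the pair and below it in replicate 1, 5 of the 8 with an entry held one. Isg15 and Rsad2, whose promoters both match, stood at their lowest and at their highest KO-IgG level in replicate 1. Ifit1, which binds viral RNA ends, was at 13.9, 44.3 and 41.7 TPM in KO-IgG, against 16.4 to 21.6 TPM in CTRL-ICB. Ifit3 was at 25.2, 92.7 and 83.3 TPM in KO-IgG, against 22.1 to 25.0 TPM in CTRL-ICB, and Oas3, a synthetase of oligoadenylate, at 13.2, 54.8 and 48.4 TPM in KO-IgG, against 10.8 to 24.6 TPM in CTRL-ICB. Ifit3 and Ifit3b, and Oas1a and Oas1g, are close copies among which reads could have been split.

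Of 25 genes that interferon gamma induces, all tested, 17 were above every CTRL-ICB library in replicate 1 and none below, while in the pair 6 were above and 2 below, with medians of 0.48 in replicate 1 and 0.27 in the pair. In every KO-IgG library 3 of the 25 were above CTRL-ICB and none below, against 1176 above among all 13886 genes. The list's log2 fold changes had a median of 0.35, beside 0.26 for CTRL-ICB over CTRL-IgG. Gbp8, a guanylate-binding protein, was at 36.6, 26.7 and 28.2 TPM in KO-IgG, against 12.4, 17.8 and 14.0 TPM in CTRL-ICB. Socs1, the inhibitor that interferon signalling induces against itself, was at 22, 39.1 and 41.8 TPM in KO-IgG, against 14.7, 20.2 and 11.3 TPM in CTRL-ICB. Cxcl9 and Cxcl10, chemokines for activated T cells, overlapped between the groups, at 91.6 to 234 TPM and 113 to 143 TPM in KO-IgG, against 63.5 to 109 TPM and 63.7 to 117 TPM in CTRL-ICB. Cd274, the gene of the PD1 ligand PD-L1, stood at 35.6, 25.0 and 21.3 TPM in KO-IgG, against 16.4, 33.9 and 27.9 TPM in CTRL-ICB, a log2 fold change of 0.19 ± 0.49 that changed sign without KO-IgG replicate 1 (-0.11).

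Genes of MHC class I and class II mostly had higher values in KO-IgG, and none passed in either fit. Of 12 tested MHC class II genes of 13 listed, all had a positive log2 fold change, 7 were above CTRL-ICB in every KO-IgG library and the median was 0.83. H2-Ab1, a chain of the class II molecule, was at 2686, 2601 and 2513 TPM in KO-IgG, against 1510, 1380 and 776 TPM in CTRL-ICB and 1069 to 1352 TPM in CTRL-IgG, a log2 fold change of 1.16 ± 0.28 (limma adjusted p 0.397). Cd74, the invariant chain, was at 6032, 5287 and 5190 TPM in KO-IgG, against 3759, 3772 and 2012 TPM in CTRL-ICB. CTRL-ICB replicate 3 was the lowest of the 9 libraries for both. Of 20 class I and peptide loading genes, 14 had a positive log2 fold change and 8 were above CTRL-ICB in every KO-IgG library, with a median of 0.20. Among them were Psmb9, a subunit of the immunoproteasome, at 373, 467 and 468 TPM in KO-IgG, against 302, 251 and 241 TPM in CTRL-ICB, and Nlrc5, the activator of class I genes, at 66.1, 102 and 102 TPM in KO-IgG, against 31.3, 53.0 and 54.4 TPM in CTRL-ICB.

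Among 26 genes of cytosolic nucleic acid sensing, 8 were above CTRL-ICB in every KO-IgG library, with a median of 0.46. Besides Trex1 they were Sting1, Ikbke, Ifi202b, Ifi207, Ifi209, Aim2 and Rnaseh2b. Ikbke, a kinase that acts on IRF3, was at 34.5, 26.2 and 25.1 TPM in KO-IgG, against 13.8, 15.6 and 15.3 TPM in CTRL-ICB and 13.3 to 20.9 TPM in CTRL-IgG, a log2 fold change of 0.96 ± 0.25 (limma adjusted p 0.405). Dnase1l3, a secreted nuclease, was high in replicate 1 alone, at 26.5 TPM, against 2.08 and 2.13 TPM in the pair and 0.815 to 3.29 TPM in CTRL-ICB.

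Values of most NK cell and T cell genes were higher in KO-IgG than in tumours whose hosts had received the checkpoint antibodies, and T cell genes were highest in replicate 1. The T cell list summed to 406, 165 and 170 TPM in KO-IgG, against 107, 133 and 89.8 TPM in CTRL-ICB. Sums of the NK cell list overlapped, at 630, 323 and 349 TPM in KO-IgG, against 441, 322 and 184 TPM in CTRL-ICB. All 12 tested NK cell genes of 14 listed had a positive log2 fold change, 9 of them were above CTRL-ICB in every KO-IgG library, and the median was 1.32, with 1.22 in replicate 1 and 1.01 in the pair. Ncr1 alone of them passed over 12 libraries. Klrk1, the receptor NKG2D, was at 38.5, 20.3 and 16.3 TPM in KO-IgG, against 10.1, 7.03 and 6.66 TPM in CTRL-ICB and 7.96 to 10.7 TPM in CTRL-IgG. Xcl1, a chemokine for cross-presenting dendritic cells, was higher in the pair, at 7.73, 37.7 and 34.4 TPM in KO-IgG, against 3.77 to 4.97 TPM in CTRL-ICB. All 19 tested T cell genes of 20 listed were positive, 10 without overlap, with a median of 1.08 that divided into 1.64 in replicate 1 and 0.43 in the pair. Cd3g, one of the CD3 signalling chains, was at 61.4, 26.8 and 27.7 TPM in KO-IgG, against 16.7, 18.9 and 12.3 TPM in CTRL-ICB and 9.04 to 12.6 TPM in CTRL-IgG. Cd8b1, of the CD8 coreceptor, was at 18.9, 7.79 and 8.38 TPM in KO-IgG, against 4.25, 6.01 and 3.12 TPM in CTRL-ICB. No T cell gene passed in either fit. Receptor families such as Klr, and Trbc1 with Trbc2, have close copies among which reads could have been split.

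Of 17 cytotoxic effector genes, 7 were above CTRL-ICB in every KO-IgG library and 1 below, with a median of 0.95, and Ifng and Ctsw passed over 12 libraries. Their summed level overlapped, at 585, 633 and 617 TPM in KO-IgG, against 326, 608 and 434 TPM in CTRL-ICB. Nkg7, a granule protein of cytotoxic cells, was at 63.1, 38.2 and 28.7 TPM in KO-IgG, against 15.7, 20.3 and 7.06 TPM in CTRL-ICB. Gzmb, the main granzyme of killing, was at 75.8, 63.6 and 64.5 TPM in KO-IgG, against 9.43, 44.8 and 33.6 TPM in CTRL-ICB. Other granzymes had other patterns. Gzmc was at 23.5, 198 and 186 TPM in KO-IgG, against 30.1 to 34.0 TPM in CTRL-ICB. Gzmf was at 31.2, 1.92 and 2.43 TPM in KO-IgG, against 5.58 to 25.6 TPM in CTRL-ICB. Gzme was the 1 gene below, at 17.3, 7.80 and 11.2 TPM in KO-IgG, against 22.9 to 25.2 TPM in CTRL-ICB. Further lymphocyte genes were named for their small p over all genes. They were Ms4a4b, a membrane protein of mouse T cells, at 76.6, 27.5 and 28.5 TPM in KO-IgG, against 8.02 to 10.1 TPM in CTRL-ICB, Tbc1d10c, a lymphocyte inhibitor of calcineurin, at 7.03 to 12.7 TPM in KO-IgG, against 1.98 to 3.11 TPM in CTRL-ICB, and Gimap3, a GTPase of T cell survival, at 7.78 to 21.1 TPM in KO-IgG, against 1.93 to 3.42 TPM in CTRL-ICB.

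The targets of the antibodies themselves overlapped between the groups. Pdcd1, which encodes PD1, was at 15.0, 5.82 and 5.17 TPM in KO-IgG, against 4.68, 7.95 and 3.01 TPM in CTRL-ICB and 3.60 to 4.95 TPM in CTRL-IgG. Ctla4 was at 2.88, 1.44 and 0.914 TPM in KO-IgG, against 0.534, 1.19 and 0.952 TPM in CTRL-ICB. Of 15 tested checkpoint, regulatory T cell and exhaustion genes of 17 listed, 3 (20.0%) were above CTRL-ICB in every KO-IgG library, against 8.47% of all tested genes. These were Lag3, an inhibitory receptor of T and NK cells, at 18.0, 9.61 and 7.99 TPM in KO-IgG, against 3.42, 4.96 and 2.30 TPM in CTRL-ICB, Pdcd1lg2, the other ligand of PD1, and Tnfrsf4, a costimulatory receptor. Foxp3, the defining factor of regulatory T cells, was under the filter of 1 TPM in 3 libraries.

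B cell and plasma cell genes were mostly too low to test. Only 6 of 18 passed the filter, among them Igkc, Ighm and Ighg1, and the defining B cell genes Ms4a1, Cd79a and Cd79b did not. Of the 6 tested, 5 had a positive log2 fold change and 1 a negative one. Their summed level was 272, 298 and 296 TPM in KO-IgG, against 228, 392 and 389 TPM in CTRL-ICB. Ighg1 was at 29.7, 11.8 and 11.9 TPM in KO-IgG, against 1.96, 0.0236 and 0.839 TPM in CTRL-ICB and 0.288, 24.4 and 2.02 TPM in CTRL-IgG, so that an untreated tumour reached the KO-IgG level. Among 14 lymphocyte-attracting chemokines tested of 15, Ccl5 and Xcl1 were the 2 (14.3%) above CTRL-ICB in every KO-IgG library, against 8.47% of all tested genes. Of 13 dendritic cell genes tested of 15, Itgae and Xcr1 were above it (15.4%), but Xcr1 reached 1 TPM in KO-IgG libraries alone, so the filter itself fixed its place. Xcr1, the receptor for XCL1 on cross-presenting dendritic cells, was at 3.18, 1.11 and 1.09 TPM in KO-IgG, against 0.387, 0.185 and 0.229 TPM in CTRL-ICB.

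Myeloid genes divided by cell type. Of 13 tested neutrophil genes of 19 listed, 7 were below CTRL-ICB in every KO-IgG library and none above, S100a8 and Il1r2 passed over 12 libraries, and the median was -1.45, -1.39 in replicate 1 and -1.70 in the pair. S100a9, the partner of S100a8 in calprotectin, was at 55.7, 16.2 and 20.8 TPM in KO-IgG, against 101, 439 and 542 TPM in CTRL-ICB and 230 to 381 TPM in CTRL-IgG, a log2 fold change of -3.12 ± 0.68 (limma adjusted p 0.388 over 10 samples and 0.0550 over 12 libraries). Cxcr2, the chemokine receptor of neutrophils, was at 1.08, 0.871 and 0.455 TPM in KO-IgG, against 1.47, 4.43 and 10.8 TPM in CTRL-ICB. Ly6g, the defining surface marker of mouse neutrophils, did not pass the filter. Of 22 macrophage and monocyte genes, 15 were above every CTRL-ICB library in replicate 1, against 5154 of all 13886 genes, with a median of 1.01. In the pair 6 of the 22 were below every CTRL-ICB library, no larger a share than the 4214 of all 13886 genes, with a median of -0.24. Adgre1, which encodes F4/80, was at 83.7, 11.5 and 16.2 TPM in KO-IgG, against 29.5, 28.5 and 15.5 TPM in CTRL-ICB. Of 14 mast cell and basophil genes tested of 15, 6 were above CTRL-ICB in every KO-IgG library and 1 below, and none passed. Cpa3, a mast cell carboxypeptidase, was at 58.5, 27.2 and 31.7 TPM in KO-IgG, against 5.09, 19.9 and 11.6 TPM in CTRL-ICB, and Fcer1a, of the IgE receptor, at 16.3, 9.93 and 11.7 TPM in KO-IgG, against 1.93, 5.60 and 4.48 TPM in CTRL-ICB.

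Values of many stromal, inflammatory and hypoxia genes were lower in KO-IgG, and none of these passed in either fit. Of 23 tested NF-kB and inflammatory cytokine genes of 24 listed, 15 had a negative log2 fold change and 8 a positive one. The median was -0.50. Il1b, Il6 and Ptgs2 (3 of 23) were below CTRL-ICB in every KO-IgG library, against 1125 of all 13886 genes. In replicate 1, 7 of the 23 were below every CTRL-ICB library and 5 above, and in the pair 8 were below and none above. Il1b was at 85.6, 62.5 and 59.8 TPM in KO-IgG, against 91.0, 153 and 126 TPM in CTRL-ICB. Ptgs2, the inducible cyclooxygenase, was at 9.73, 5.63 and 6.54 TPM in KO-IgG, against 21, 22.8 and 40.5 TPM in CTRL-ICB. All 20 fibroblast and matrix genes had a negative log2 fold change, 8 of them without overlap, with a median of -0.93. Without CTRL-ICB replicate 1 the median was -0.48, and the list's summed level was 1046, 1056 and 1017 TPM in KO-IgG, against 5375, 1601 and 1429 TPM in CTRL-ICB. Fbln2, a matrix fibulin, was at 182, 114 and 111 TPM in KO-IgG, against 285, 288 and 301 TPM in CTRL-ICB and 233 to 292 TPM in CTRL-IgG. The collagen gene Col1a1 was at 92.9, 165 and 162 TPM in KO-IgG, against 985, 249 and 214 TPM in CTRL-ICB. Of 20 hypoxia and glycolysis genes, 8 were below CTRL-ICB in every KO-IgG library, with a median of -0.39. Slc2a1, the glucose transporter GLUT1, was at 52.8, 69.4 and 73.0 TPM in KO-IgG, against 80.8, 149 and 197 TPM in CTRL-ICB. In CTRL-IgG it was at 142, 166 and 58.5 TPM, so that an untreated tumour lay within the KO-IgG range. The mean log2 difference of the hypoxia list from CTRL-ICB was -0.30, -0.54 and -0.62 in KO-IgG. In CTRL-IgG it was 0.22, 0.47 and -0.94, so low values of this list were not particular to KO-IgG.

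**Figure D4:**
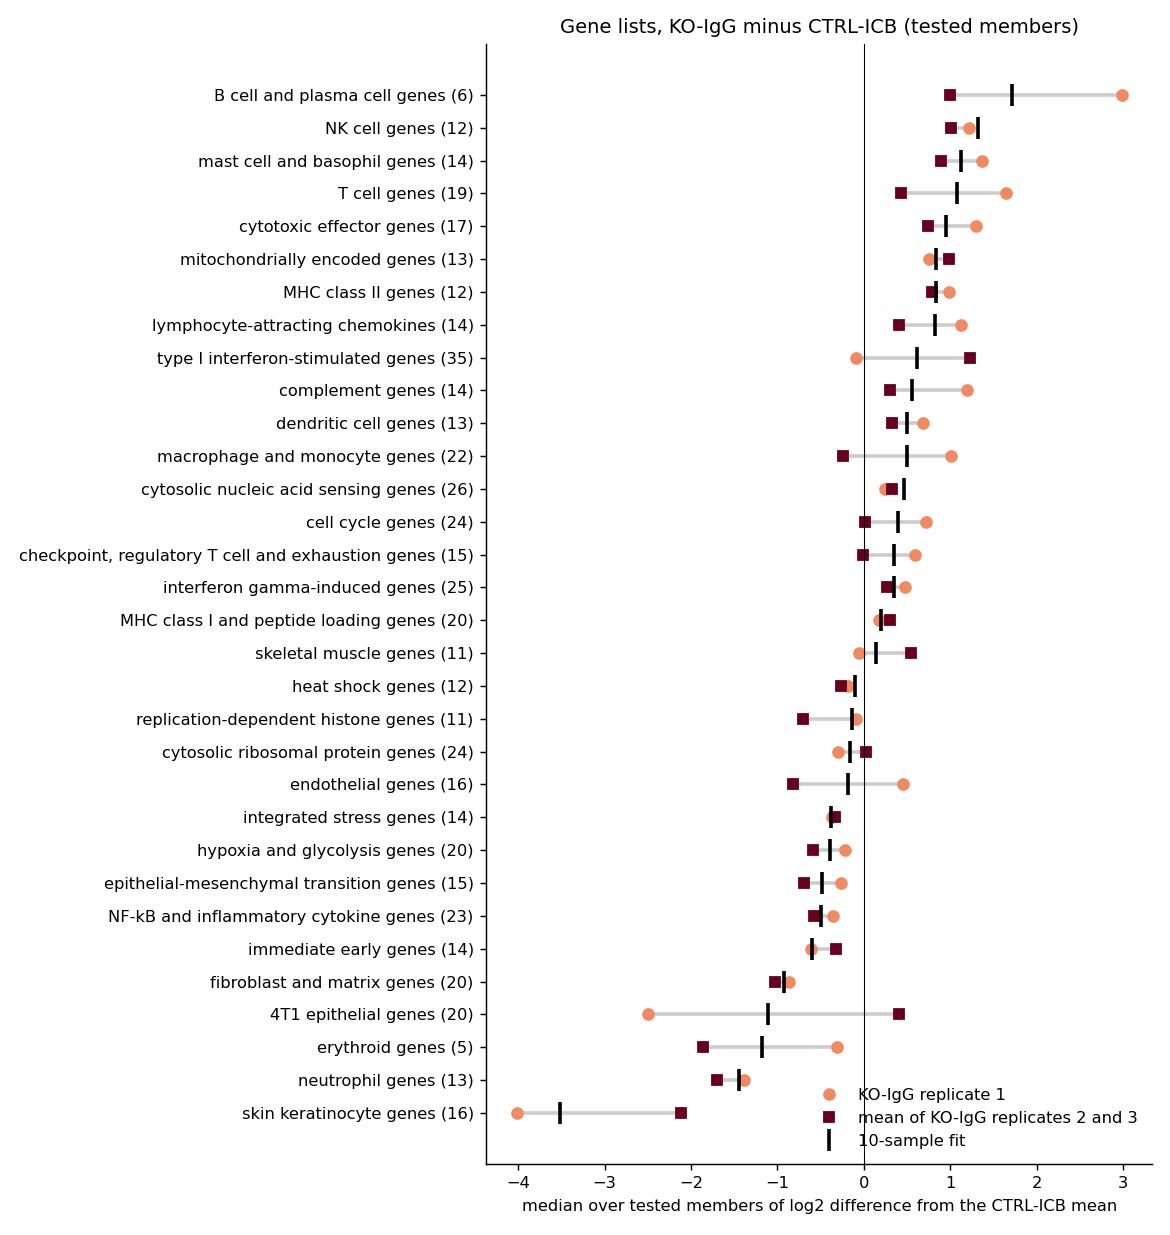
Median over the tested members of each gene list (rows, number tested in brackets) of the log2 difference from the CTRL-ICB mean, in KO-IgG replicate 1 (orange circles), in the mean of KO-IgG replicates 2 and 3 (dark squares) and in the 10-sample fit (black ticks). Replicate 1 and the pair lie on opposite sides of 0 for the interferon-stimulated, macrophage, endothelial and 4T1 epithelial lists. They also do so, with 1 of them close to 0, for the checkpoint, cytosolic ribosomal protein and skeletal muscle lists. They lie on the same side for the NK cell, T cell, neutrophil and fibroblast lists, among others.

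Other features also differed between the libraries, and their part in these results was not tested. Mitochondrially encoded transcripts took 6.0%, 7.34% and 7.53% of TPM in KO-IgG, against 4.03%, 3.63% and 3.88% in CTRL-ICB and 2.59% to 4.74% in CTRL-IgG, and 12 of the 13 such genes were above CTRL-ICB in every KO-IgG library. Genes of skin keratinocytes were high in CTRL-ICB replicate 3. The summed level of the 16 tested keratinocyte genes of 18 listed was 14.8, 429 and 415 TPM in KO-IgG, against 471, 235 and 12244 TPM in CTRL-ICB and 479, 117 and 6075 TPM in CTRL-IgG. Krt5, the keratin of basal keratinocytes, was at 0 to 1.42 TPM in KO-IgG, against 17.2, 1.70 and 770 TPM in CTRL-ICB. Heat shock genes were below CTRL-ICB in every KO-IgG library for 5 of 12 (41.7%), immediate early genes for 3 of 14 (21.4%) and integrated stress genes for 4 of 14 (28.6%). Of all tested genes 8.10% were. Skeletal muscle genes summed to 32.4, 72.3 and 72.4 TPM in KO-IgG, against 28.6 to 38.2 TPM in CTRL-ICB, and erythroid genes to 176, 36.3 and 49.8 TPM in KO-IgG, against 129 to 273 TPM in CTRL-ICB. Cell cycle genes had a median of 0.40, with 0.72 in replicate 1 and 0.01 in the pair, and complement genes of 0.56, with 1.19 and 0.30. Endothelial genes had medians of 0.45 in replicate 1 and -0.82 in the pair. Cytosolic ribosomal protein genes had -0.30 and 0.02, epithelial-mesenchymal transition genes -0.26 and -0.69, and replication-dependent histone genes -0.09 and -0.71 for replicate 1 and the pair. Of 12 adipocyte genes 4 were tested, none without overlap.

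KO-IgG replicate 1 differed from replicates 2 and 3 over much of the transcriptome, and these values are a description of 1 library. It was above every CTRL-ICB library while both of the others were below every one of them for 1386 genes, and the reverse held for 565 genes. The genes lowest in it relative to the pair, picked for that, included several of epithelial cells. Fxyd3, a regulator of the sodium pump, was at 0.0508 TPM in replicate 1, against 376 and 403 TPM in replicates 2 and 3 and 154 to 281 TPM in CTRL-ICB. Cldn7, a tight junction claudin, was at 2.41 TPM, against 375 TPM in each of replicates 2 and 3 and 53.7 to 66.2 TPM in CTRL-ICB. S100a14, Krt14, Smim22 and Tmprss6 were at 0 to 1.26 TPM, against 75.5 to 394 TPM in replicates 2 and 3. Spint1, a protease inhibitor of epithelial surfaces, was at 50.9 TPM in replicate 1, against 64.3 and 63.5 TPM in replicates 2 and 3. Of 20 genes of the 4T1 epithelial list, 18 were below every CTRL-ICB library in replicate 1 and 9 above every one in the pair, with medians of -2.50 and 0.41. Cdh1, which encodes E-cadherin, was at 17.6 TPM in replicate 1, against 121 and 117 TPM in replicates 2 and 3 and 108 to 165 TPM in CTRL-ICB. CTRL-IgG replicate 2 was also low, at 87.1 TPM of Epcam, against 1113 and 602 TPM in the other CTRL-IgG libraries.

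**Figure D5:**
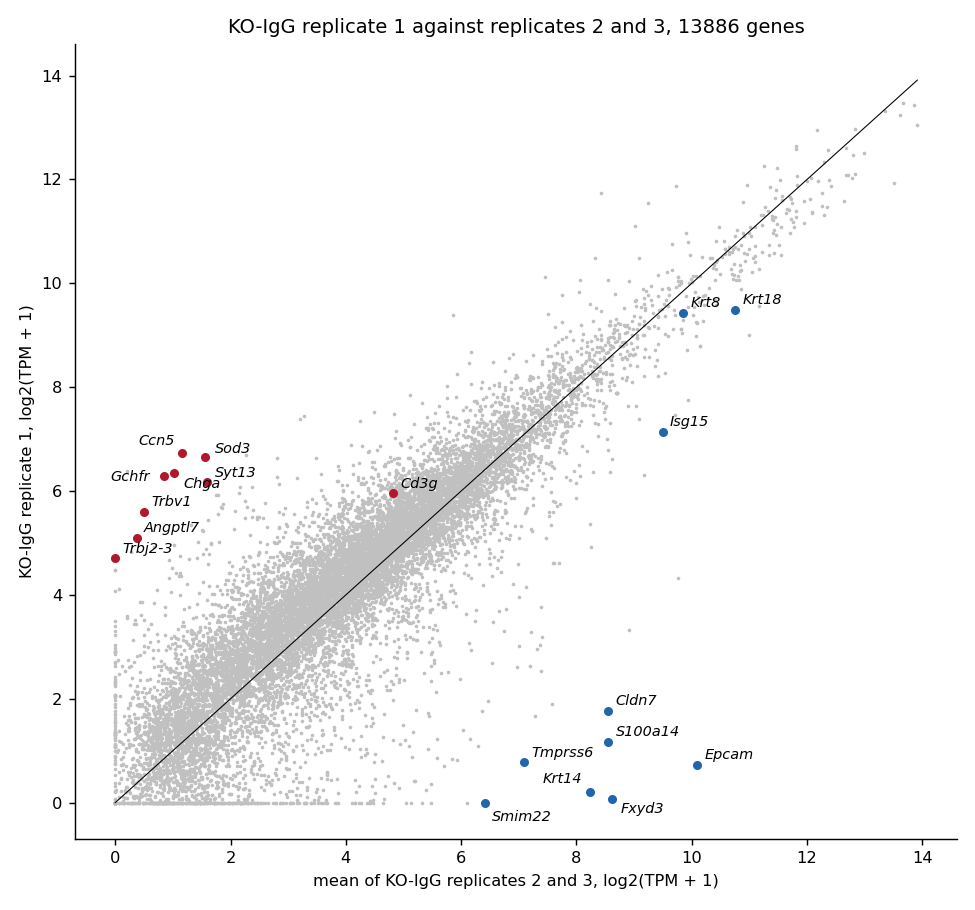
Log2(TPM + 1) of 13886 genes in KO-IgG replicate 1 (vertical axis) against the mean of KO-IgG replicates 2 and 3 (horizontal axis), with the line of equality. The labelled genes are the 8 highest and 7 of the 8 lowest in replicate 1 relative to the pair, with Krt8, Krt18, Isg15 and Cd3g added for comparison. Epcam, Fxyd3 and Krt14 lie near 0 in replicate 1 alone, while Krt8 lies close to the line and Krt18 further below it.

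Genes at the other end, picked as the highest in replicate 1 relative to the pair, were in part also high in other groups. Chga, the granule protein chromogranin A of neuroendocrine cells, was at 79.9 TPM in replicate 1, against 0.997 and 1.06 TPM in replicates 2 and 3 and 0.417 to 2.15 TPM in CTRL-ICB. Syt13, a synaptotagmin, was at 71.0 TPM, against 2.51 and 1.56 TPM in replicates 2 and 3, and Sod3, the extracellular superoxide dismutase, at 99.9 TPM, against 2.01 and 1.91 TPM. Syt13 was at 7.43 to 7.89 TPM in CTRL-ICB, and in CTRL-IgG replicate 2 Syt13 and Sod3 reached 34.3 and 18.4 TPM. Trbv1 and Trbj2-3, segments of the T cell receptor beta chain, were at 47.5 and 25.2 TPM in replicate 1, while replicates 2 and 3 had 0 and 0.839 TPM of Trbv1 and are listed at 0 for Trbj2-3. Ccn5 and Gchfr were at 106 and 77.4 TPM in replicate 1, against 0.318 to 1.80 TPM in replicates 2 and 3, and in CTRL-IgG replicate 2 they reached 91.3 and 65.7 TPM. In CTRL-ICB, Ccn5 was at 4.04, 53.9 and 15.9 TPM and Gchfr at 9.58 to 13.2 TPM. Angptl7, an angiopoietin-like secreted protein, was at 33.4 TPM, against 0.234 and 0.353 TPM in replicates 2 and 3 and 10.8 TPM in CTRL-IgG replicate 2.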

How the data were processed

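RNA-seq of polyadenylated RNA from 4T1 tumours was deposited by the authors as 1 table of TPM for 23667 gene symbols in 12 libraries, with GRCm38 and kallisto named in the submitters' processing notes. Its version, transcript set and use of strand are not stated there or in the labels, so reads of overlapping or near-identical genes could not be told apart. Each library sums to the same total, so TPM keeps no depth. Per the labels' protocols each library came from a different tumour, but replicates 2 and 3 of KO-IgG, like replicates 1 and 2 of KO-ICB, were near-identical and were averaged as TPM. P-values measure the spread between the 10 samples that remain.

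From these values, log2(TPM + 1) was fitted for the 13886 genes that reached 1 TPM in 3 or more libraries, in limma 3.58.1 (R 4.3.3) with 4 group means, an intensity trend and robust shrinkage. Benjamini-Hochberg adjustment ran over all of these genes, with a threshold of 0.05. The fit was tested on simulated data. Fold changes of low genes are understated on this scale. Coordinates came from GENCODE M21 (22898 symbols, 96.8%, matched 1 gene) and promoters from RefSeq GRCm38.p6.

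The comparison, the 33 gene lists and the tests were chosen with earlier results of these data known. Genes were named by a rule: Trex1, Pdcd1, Ctla4 and Cd274, 12 genes per direction by smallest p without overlap and at least 5 TPM in a group, up to 4 members of each list by p, and the 8 highest and 8 lowest in KO-IgG replicate 1 with at least 10 TPM. Genes outside it (Isg15, Irf7, Usp18, Rsad2, Ifit1, Ifit3, Oas3, Cd74, Cd8b1, Gzmb, Gzmc, Gzme, Gzmf, Adgre1, Cxcr2, Col1a1, Krt8, Krt18 and Acrbp, Gm4707, Hist1h2an as called genes) were chosen after their values were seen. Alternatives were 12 or 11 samples, quantile normalization, median centring, no trend or shrinkage, no filter or 5 TPM, array weights, a pseudocount of 0.1, a fit of just KO-IgG and CTRL-ICB, a replicate block and leaving out each sample. The fits over 11 libraries without KO-IgG replicate 1 or CTRL-ICB replicate 3 were added after the data had been seen. Some genes that the rule or the lists hold are not reported here by name.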

Additional observations from a re-analysis of the deposited data

How the results depend on the processing

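The count of genes called by limma was 0 over 10 samples, with 1089 genes at an unadjusted p under 0.05, and settings that also called 0 had 775 to 1353 such genes. It was also 0 under median centring, quantile normalization, limma with neither trend nor shrinkage, the filter of 5 TPM, the pseudocount of 0.1, array weights and fits of only the groups compared. It was 24 over 12 libraries, 1 over 11 samples with only the KO-IgG pair averaged, and 10 with no filter, where 23667 symbols were tested. Leaving out a sample gave 0 to 93 called genes, with 93 (49 higher, 44 lower) without the KO-IgG pair, 2 without CTRL-ICB replicate 3 and 0 for every other left-out sample. Replicate 1 is then the lone KO-IgG sample, whose spread is taken from the other groups. Over 11 libraries the count was 636 without KO-IgG replicate 1, which leaves the near-identical pair as the only KO-IgG libraries, and 6 without CTRL-ICB replicate 3. With replicate numbers as a block it was 2 over 12 libraries (Dok2 and Msln). Same-numbered libraries of KO-IgG and CTRL-ICB had deviations correlated at 0.031, -0.026 and 0.031, and differently numbered ones at -0.047 to 0.050. KO-IgG replicates 2 and 3 were near-identical, so these values cannot show whether the numbers pair tumours. The TPM difference of Trex1 ranged from 14.0 to 23.9 with a sample left out. Of 31 genes followed through 24 alternatives, Cd274 alone changed sign, at -0.11 with array weights, -0.10 without CTRL-ICB replicate 1 and -0.11 without KO-IgG replicate 1 over 10 samples or 11 libraries, and over the left-out samples it ranged from -0.11 to 0.49 (0.41 without CTRL-ICB replicate 2). Most of the 31 were genes without overlap between the KO-IgG and CTRL-ICB libraries. Leaving out or averaging samples could not reverse those genes, so their kept sign is no support. The median log2 fold change over all genes was -0.13 without KO-IgG replicate 1 and 0.10 without the pair. Over all alternatives the list medians ranged from -1.31 to -0.48 for fibroblast and matrix genes, -0.63 to -0.22 for hypoxia genes, 0.11 to 0.54 for interferon gamma-induced genes, 0.24 to 0.54 for nucleic acid sensing genes, 0.55 to 1.04 for MHC class II genes and 0.17 to 1.19 for complement genes. Other lists changed sign. They ranged from -0.09 to 1.23 for type I interferon-stimulated genes, -2.50 to 0.41 for 4T1 epithelial genes and -0.24 to 1.01 for macrophage genes. Checkpoint genes ranged from -0.01 to 0.63, endothelial genes from -0.82 to 0.45 and skeletal muscle genes from -0.06 to 0.55. Ribosomal protein genes ranged from -0.30 to 0.02 and histone genes from -0.74 to 0.09. The cause of these shifts was not tested. TPM gives no depth, so low genes carry an unknown counting error.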
